A study of Mus musculus with 2 samples.

Results

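The 10 genes described here, Cdkn1a, Phlda3, Eda2r, Mdm2, Ccng1, Bax, Bbc3, Sesn2, Trp53inp1 and Aen, are known transcriptional targets of the tumour suppressor p53 (gene Trp53). All 10 of 10 were found by symbol among the 30905 genes listed for each of 2 single-cell RNA libraries from mouse retina. The 10 genes were chosen from earlier results of these same 2 libraries, in which the level ratios of Cdkn1a and Phlda3 in Müller glial cells stood out. The level ratios between the libraries are therefore a description and carry no test.

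The Mettl3-CKO library came from pups in which both floxed alleles of Mettl3, which encodes the catalytic subunit of the m6A RNA methyltransferase, were deleted by Six3-Cre. Six3-Cre acts in retinal progenitor cells from the embryonic stage on. The study showed loss of the protein in the central retina, so retinal cells that kept Mettl3 can be present in this library. The control library came from control pups of the same litter, whose Cre genotype is not given in the sources used here. All pups were at postnatal day 7, and each library pooled 2 retinas from 2 pups. No replicate library exists for either group, so the intervals below are 95% intervals that cover counting error only, and no difference has a replicate check.

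p53 is a transcription factor that is kept low by the ubiquitin ligase Mdm2 and is stabilised by DNA damage, stalled ribosomes and other stresses. Its targets stop the cell cycle, prepare or carry out apoptosis, restrain growth signalling and, through Mdm2 itself, turn p53 off again. In the developing retina, progenitor cells and newborn neurons are sensitive to p53 activation, and Cdkn1a is also used by cells that leave the cell cycle normally.

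Where p53 binds, its site is usually built from 2 copies of a 10-base motif, the p53 decamer, lying next to each other or up to 13 bases apart. Stretches of the promoter windows of the 5 members that hold an exact decamer are shown. The members are known p53 targets, so their choice already favours such sites. The counts below are therefore no independent evidence. Sequences are from RefSeq on build GRCm38, read on the strand of the gene from 5′ to 3′, with the decamers (at most 1 mismatch) in capitals.
Cdkn1a, chr17:29090891-29090962, plus strand: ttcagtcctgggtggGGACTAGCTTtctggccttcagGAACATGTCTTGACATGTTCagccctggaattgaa
Ccng1, chr11:40755447-40755496, minus strand: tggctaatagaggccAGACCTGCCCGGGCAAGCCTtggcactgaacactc
Mdm2, chr10:117710920-117710998, minus strand: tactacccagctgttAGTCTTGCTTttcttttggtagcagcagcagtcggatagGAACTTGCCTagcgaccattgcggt
Bax, chr7:45467075-45467114, minus strand: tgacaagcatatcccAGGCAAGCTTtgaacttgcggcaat
Aen, chr7:78895922-78895961, plus strand: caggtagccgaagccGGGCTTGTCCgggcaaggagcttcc
Of the 10 members, 9 had a window of 250 bases before to 50 bases after a start. An exact decamer lay in the windows of 5 of these 9 genes and of 9.55% of the 27025 genes with a window. With 1 mismatch allowed, the counts were 7 of 9 genes and 54.2% of all genes. A pair of decamers at the spacing of a full site, with no mismatch, lay in the window of Cdkn1a and of 0.0740% of all genes. With at most 1 mismatch over the 2 decamers together, Cdkn1a and Ccng1 held such a pair, as did 0.718% of all genes. A match is a description of the letters and not a bound site, and sites outside these windows were not searched.

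The control library gave 3994 complete cells with a median of 4520.5 unique molecular identifiers (UMIs, 1 per captured transcript) and the Mettl3-CKO library 3109 cells with a median of 5207. Levels are given as CPM, that is, all UMIs of a gene in the cells of a class per 1000000 UMIs of those cells, mitochondrial genes left out. The libraries differ in the sexes they pooled. Xist, the RNA that coats the inactive X chromosome of females, was seen in 0.751% of control and 56.3% of Mettl3-CKO cells. The Mettl3-CKO library therefore held 1751 cells with Xist and 725 with Y-linked transcripts and no Xist, and members that the text turns on are also given within these cells. Of the cells with Xist, 220 also held a Y-linked UMI, so this set may not be of 1 sex only, and 633 further cells held neither. Mettl3 itself stood at 39.5 CPM in control and 33.1 CPM in Mettl3-CKO cells, a log2 ratio of -0.26 (-0.41 to -0.11). Because the libraries read the 3′ end of transcripts, transcripts of the deleted allele can still be counted, and this level does not check the deletion. The 2 libraries shared 5 cell barcodes among the cells analysed.

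Clusters were named from marker genes. The classes held 213 control and 348 Mettl3-CKO retinal progenitor (RPC)-like cells, 194 and 216 neurogenic precursor-like cells, 389 and 256 Müller-like cells, and 429 and 407 rod/bipolar precursor-like cells. Further classes held 1445 and 906 rod-like, 97 and 107 cone-like, 164 and 68 bipolar-like, 70 and 66 amacrine-like and 34 and 30 microglia-like cells. Another 914 control and 688 Mettl3-CKO cells lay in clusters that received no name. A cluster named from astrocyte markers held 45 control and 17 Mettl3-CKO cells. Its leading genes also included Ttr and Pmel, which are pigment epithelium markers, and the pericyte marker Rgs5. It was below the minimum of 30 cells per library and is not described as a class. The 10 members were kept out of the genes used for clustering, so that they did not define the classes.

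Over all cells, 6 of the 10 members were at least 1.5-fold higher in the Mettl3-CKO library, none was that much lower, and the other 4 lay between. The 6 were Cdkn1a, Phlda3, Eda2r, Ccng1, Sesn2 and Aen. Of all 14573 genes with at least 20 UMIs over both libraries, 6.83% were at least 1.5-fold higher. The median log2 ratio was 0.67 over the members and 0.02 over all genes. Ratios over all cells also depend on the share of each class. RPC-like cells, for example, made up 5.33% of control and 11.2% of Mettl3-CKO cells. The summed level of the 10 members was 400 CPM in control and 573 CPM in Mettl3-CKO cells, a ratio of 1.43 (1.39 to 1.47), and without Cdkn1a the ratio was 1.24.

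Cdkn1a (chr17:29090976-29100727, plus strand) encodes p21, the inhibitor of cyclin-dependent kinases through which p53 arrests the cell cycle. It had 356 UMIs in the control library, or 17.0 CPM, and 1972 UMIs in the Mettl3-CKO library, or 98.8 CPM. The log2 ratio was 2.54 (2.38 to 2.71). A gene on the opposite strand overlaps Cdkn1a. Ccng1 (chr11:40748552-40755311, minus strand), a cyclin that recruits a phosphatase to Mdm2, went from 420 UMIs and 20.04 CPM in control to 620 UMIs and 31.1 CPM in Mettl3-CKO cells. Its log2 ratio was 0.63 (0.45 to 0.81).

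Phlda3 (chr1:135766119-135769136, plus strand) encodes a small protein that keeps the survival kinase Akt off the membrane. It had 118 control UMIs (5.63 CPM) and 511 Mettl3-CKO UMIs (25.6 CPM), and the log2 ratio was 2.18 (1.89 to 2.49). Sesn2 (chr4:132492032-132510501, minus strand), a sestrin that restrains mTORC1 signalling, stood at 2.96 CPM in control and 7.82 CPM in Mettl3-CKO cells. Its log2 ratio was 1.40 (0.97 to 1.85). Sesn2 overlaps another gene on the same strand. Both genes were among the lowest-count members in control cells, and both lay above their control level by more than counting error.

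Among the members linked to cell death, Eda2r (chrX:97333840-97377216, minus strand), a receptor of the tumour necrosis factor receptor family, was nearly absent from control cells. It had 5 UMIs there and 44 in Mettl3-CKO cells, a log2 ratio of 3.21 (1.88 to 4.90). Aen (chr7:78895854-78911209, plus strand), a nuclease that acts in apoptosis, stood at 37.3 CPM in control and 60.5 CPM in Mettl3-CKO cells, a log2 ratio of 0.70 (0.57 to 0.83). Bax (chr7:45461697-45466898, minus strand), which opens the outer mitochondrial membrane, stood at 184 CPM and 207 CPM, a log2 ratio of 0.17 (0.11 to 0.24). Bbc3 (chr7:16308393-16318205, plus strand), the BH3-only protein Puma, had 13.2 CPM in control and 13.4 CPM in Mettl3-CKO cells. Over all cells the death-linked members thus split, with Eda2r and Aen past 1.5-fold and Bax and Bbc3 not. Bax overlaps another gene on the same strand.

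Mdm2 (chr10:117688875-117710758, minus strand), the ligase that degrades p53 and is itself a p53 target, was at 79.5 CPM in control and 83.3 CPM in Mettl3-CKO cells. Its log2 ratio of 0.07 had an interval from -0.03 to 0.17. Trp53inp1 (chr4:11156431-11174379, plus strand), a stress-induced protein that acts in autophagy and on p53, was at 40.6 CPM and 43.2 CPM, a log2 ratio of 0.09. Trp53 itself stood at 85.7 CPM in control cells with a log2 ratio of -0.04.

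**Figure D1:**
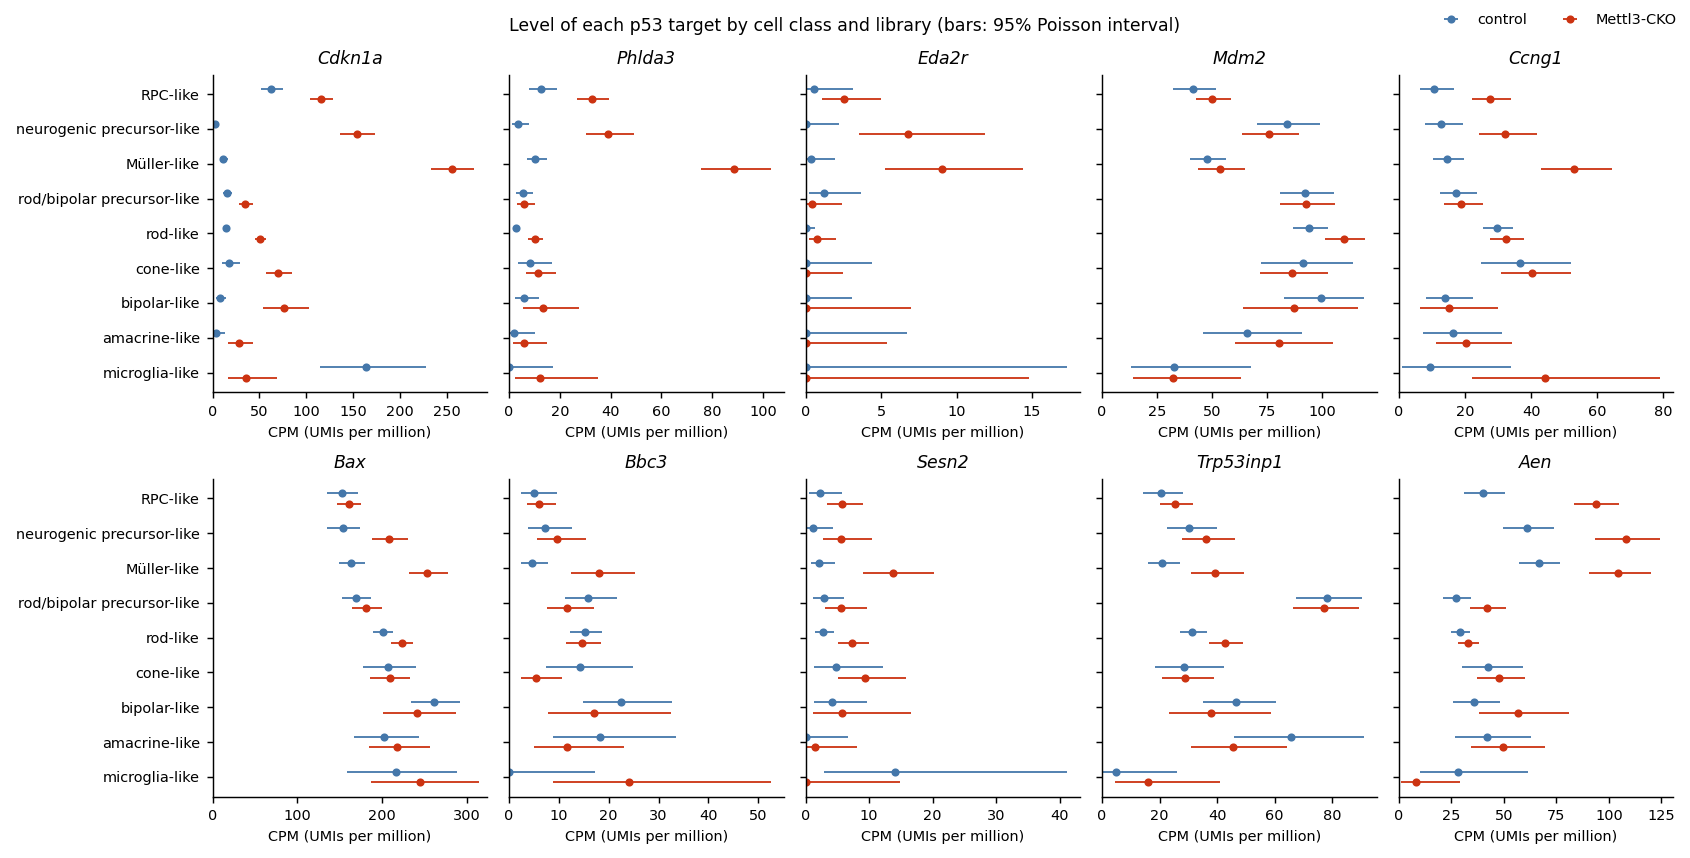
Level of each of the 10 members in CPM (horizontal axis, own scale per panel) in 9 cell classes (vertical axis), for the control and the Mettl3-CKO library, with exact Poisson 95% intervals as bars. Cdkn1a and Phlda3 were highest in the Müller-like cells of the Mettl3-CKO library, at 255 and 88.5 CPM, while the intervals of the 2 libraries overlapped for Mdm2 in Müller-like cells, at 47.5 and 53.5 CPM.

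The largest set of differences was in Müller-like cells, the glia that arise last from retinal progenitors. The genes were chosen after Cdkn1a and Phlda3 had stood out in Müller cells of these libraries, so this order was partly set by the choice. Of 9 members with at least 20 UMIs, 8 were at least 1.5-fold higher in the Mettl3-CKO library, all but Mdm2. The count was 5 at a fold of 2, and 5 with only the Mettl3-CKO cells that held Xist. In the same class, 13% of 10724 genes were that much higher and 4.77% were that much lower. The median log2 ratio was 1.87 over the members counted and 0.08 over all genes.

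In Müller-like cells, Cdkn1a had 33 UMIs in 389 control cells and 482 UMIs in 256 Mettl3-CKO cells. These are 11.7 and 255 CPM, a 21.8-fold ratio (log2 4.45, 3.94 to 5.004), and Cdkn1a ranked 5 of 10724 genes. A single control cell held 15 of the 33 control UMIs, and without the cell with the most Cdkn1a in each library the ratio was 36.1. Phlda3 stood at 10.3 CPM in control and 88.5 CPM in Mettl3-CKO cells, a log2 ratio of 3.11 (2.53 to 3.73) and rank 16. Sesn2 had 6 and 26 UMIs, a log2 ratio of 2.70 (1.38 to 4.27) and rank 25. The 3 genes thus lay among the 25 largest ratios of the class, which for Cdkn1a and Phlda3 restates what the choice of genes used.

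The death-linked members were also higher in Müller-like cells of the Mettl3-CKO library. Bbc3 had 13 control and 34 Mettl3-CKO UMIs, or 4.61 and 18.0 CPM, a log2 ratio of 1.97 (1.01 to 3.01). Bax stood at 164 and 253 CPM, a log2 ratio of 0.63 (0.44 to 0.82), and Aen at 66.6 and 104 CPM, a log2 ratio of 0.65 (0.35 to 0.94). Eda2r had 1 control UMI and 17 Mettl3-CKO UMIs, a ratio of 25.4 with an interval from 3.98 to 1062, and stayed below the minimum of 20 UMIs for the count. Unlike over all cells, Bax and Bbc3 were past 1.5-fold here.

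Ccng1 stood at 14.5 CPM in control and 53.003 CPM in Mettl3-CKO Müller-like cells, a log2 ratio of 1.87 (1.33 to 2.43). Trp53inp1 stood at 20.9 and 39.2 CPM, a log2 ratio of 0.91 (0.39 to 1.43). Mdm2, which feeds back on p53, had 47.5 and 53.5 CPM, a log2 ratio of 0.17 whose interval ran from -0.21 to 0.56. Trp53 had a log2 ratio of 0.10 (-0.19 to 0.38) and Mettl3 one of -0.19 (-0.67 to 0.28). The summed level of the members was 342 CPM in control and 888 CPM in Mettl3-CKO cells, a ratio of 2.59 (2.40 to 2.81), and without Cdkn1a it was 1.91 (1.76 to 2.09).

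The Müller-like class was made of a cluster led by Npy, Vcam1 and Cyp26a1 and a shallower one led by Crym, Rlbp1 and Dbi. Cdkn1a was higher in the Mettl3-CKO cells of both. In the first, it stood at 12.8 CPM in 263 control cells and 260 CPM in 192 Mettl3-CKO cells. In the shallower cluster it had 0 UMIs in 126 control cells and 18 UMIs in 64 Mettl3-CKO cells, which is at least 14.3-fold higher when the control is set to 3 UMIs.

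Neurogenic precursor-like cells, progenitors committed to making neurons, had almost no Cdkn1a in the control library. There were 4 UMIs in 194 control cells and 273 UMIs in 216 Mettl3-CKO cells, or 2.42 and 154 CPM, a log2 ratio of 5.997 (4.62 to 7.88). Without the cell with the most Cdkn1a in each library, 2 and 232 UMIs were left, with the wide ratio of 109 (29.9 to 908). The log2 ratio was 3.37 with each library clustered on its own and 3.71 with the members among the clustering genes. Phlda3 had 6 and 69 UMIs, a log2 ratio of 3.43 (2.23 to 4.92). Eda2r had 0 control and 12 Mettl3-CKO UMIs, at least 3.74-fold higher when the control is set to 3 UMIs. In this class, 4 of 8 members counted were at least 1.5-fold higher, against 10.2% of all genes.

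The other 2 members past 1.5-fold in neurogenic precursor-like cells were Ccng1, at 12.7 and 32.2 CPM with a log2 ratio of 1.34 (0.60 to 2.14), and Aen, at 61.0 and 108 CPM with a log2 ratio of 0.82 (0.47 to 1.19). Bax stood at 153 and 209 CPM, a log2 ratio of 0.44 (0.21 to 0.68). Mdm2 was at 84.0 CPM in control and 75.7 CPM in Mettl3-CKO cells, a log2 ratio of -0.15 (-0.50 to 0.20). The summed level of the members had a ratio of 1.90 (1.72 to 2.10), and of 1.48 without Cdkn1a.

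In RPC-like cells the control level of Cdkn1a was higher than in the other control classes apart from microglia-like cells. It had 111 UMIs in 213 control cells and 366 UMIs in 348 Mettl3-CKO cells, or 62.7 and 116 CPM, a log2 ratio of 0.89 (0.58 to 1.21). A single Mettl3-CKO cell held 77 of the 366 UMIs, and without the cell with the most Cdkn1a in each library the ratio was 1.54. Aen, at 40.1 and 93.7 CPM, had the larger log2 ratio of 1.23 (0.85 to 1.62). Phlda3, at 12.4 and 32.6 CPM, had a log2 ratio of 1.39 (0.72 to 2.13), and Ccng1, at 10.7 and 27.5 CPM, one of 1.36 (0.63 to 2.16). Sesn2 had 4 and 18 UMIs, with an interval that included no difference. In all, 5 of 9 members counted were at least 1.5-fold higher, against 11.6% of all genes, and the summed ratio was 1.495 (1.36 to 1.64).

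In rod-like cells, 3 of 9 members were at least 1.5-fold higher, Cdkn1a, Phlda3 and Sesn2, against 6.39% of all genes. Cdkn1a stood at 14.5 CPM in 1445 control cells and 51.0 CPM in 906 Mettl3-CKO cells, a log2 ratio of 1.81 (1.45 to 2.18). Phlda3 had 16 and 52 UMIs, a log2 ratio of 1.90 (1.06 to 2.80), and Sesn2 16 and 37 UMIs, a log2 ratio of 1.40 (0.52 to 2.35). The death-linked members and Mdm2 lay closer to the control here, with log2 ratios of 0.15 for Bax, -0.05 for Bbc3, 0.17 for Aen and 0.22 for Mdm2. The summed ratio was 1.25 (1.18 to 1.32).

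In rod/bipolar precursor-like cells, 3 of 9 members counted were at least 1.5-fold higher, against 6.91% of all genes. Cdkn1a stood at 15.4 and 35.0 CPM, a log2 ratio of 1.18 (0.60 to 1.78), and Aen at 27.1 and 41.9 CPM, a log2 ratio of 0.63 (0.16 to 1.11). A single control cell held 18 of the 37 control Cdkn1a UMIs, and without the top cell of each library the Cdkn1a ratio was 3.60 (2.14 to 6.36). The third was Sesn2, with 7 and 13 UMIs and an interval from -0.49 to 2.51. Phlda3 was at 5.41 CPM in control and 6.04 CPM in Mettl3-CKO cells, unlike in Müller-like, neurogenic precursor-like and RPC-like cells. The summed ratio was 1.11 (1.02 to 1.21).

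In the classes of fewer cells, Cdkn1a was the main member that differed. In cone-like cells it stood at 17.8 and 70.0 CPM, a log2 ratio of 1.98 (1.19 to 2.86), with 37 of the 104 Mettl3-CKO UMIs in a single cell. It was the 1 member of 8 counted past 1.5-fold higher there, against 11.7% of all genes, and Bbc3 was lower, with 12 and 8 UMIs and a log2 ratio of -1.40 (-2.90 to 0.01). In bipolar-like cells Cdkn1a had 9 and 40 UMIs, a log2 ratio of 3.34 (2.28 to 4.57), with 20 of the 40 in a single cell. Cdkn1a and Aen made up the 2 of 7 members counted that were higher, against 9.78% of all genes, and Aen had an interval from -0.05 to 1.38.

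Cdkn1a was also the 1 of 6 members higher in amacrine-like cells, where it had 2 UMIs in control and 19 in Mettl3-CKO cells and a log2 ratio of 2.93 (0.88 to 6.08), against 14% of all genes. In the 9 Mettl3-CKO cells of this class with Cdkn1a, markers of some other classes were higher than in the 57 without. Cone markers had a ratio of 6.99 (5.98 to 8.21) with 7 of 8 higher, bipolar 8.01 (5.32 to 12.3) with 5 of 12 and rod 2.13 (1.97 to 2.31) with 9 of 9. RPC markers had a ratio of 2.24 (1.45 to 3.45) with 8 of 9 higher, and rod/bipolar precursor markers 1.58 (1.45 to 1.72) with 5 of 6. Amacrine markers had one of 0.686 (0.608 to 0.771), and neurogenic precursor, Müller, horizontal and endothelial markers were also lower. The part of these markers in the Cdkn1a level was not tested. Microglia, the immune cells of the retina, do not descend from the progenitors in which Six3-Cre acts. In microglia-like cells, 0 of 2 members counted were higher, against 13.8% of all genes, and Cdkn1a was lower, at 164 CPM in control and 36.2 CPM in Mettl3-CKO cells. A single control cell held 32 of the 35 control UMIs, and without the cell with the most Cdkn1a in each library 3 control and 5 Mettl3-CKO UMIs remained, a ratio of 1.46 (0.284 to 9.41). The member share past 1.5-fold was near or below the background in cone-like, amacrine-like and microglia-like cells.

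**Figure D2:**
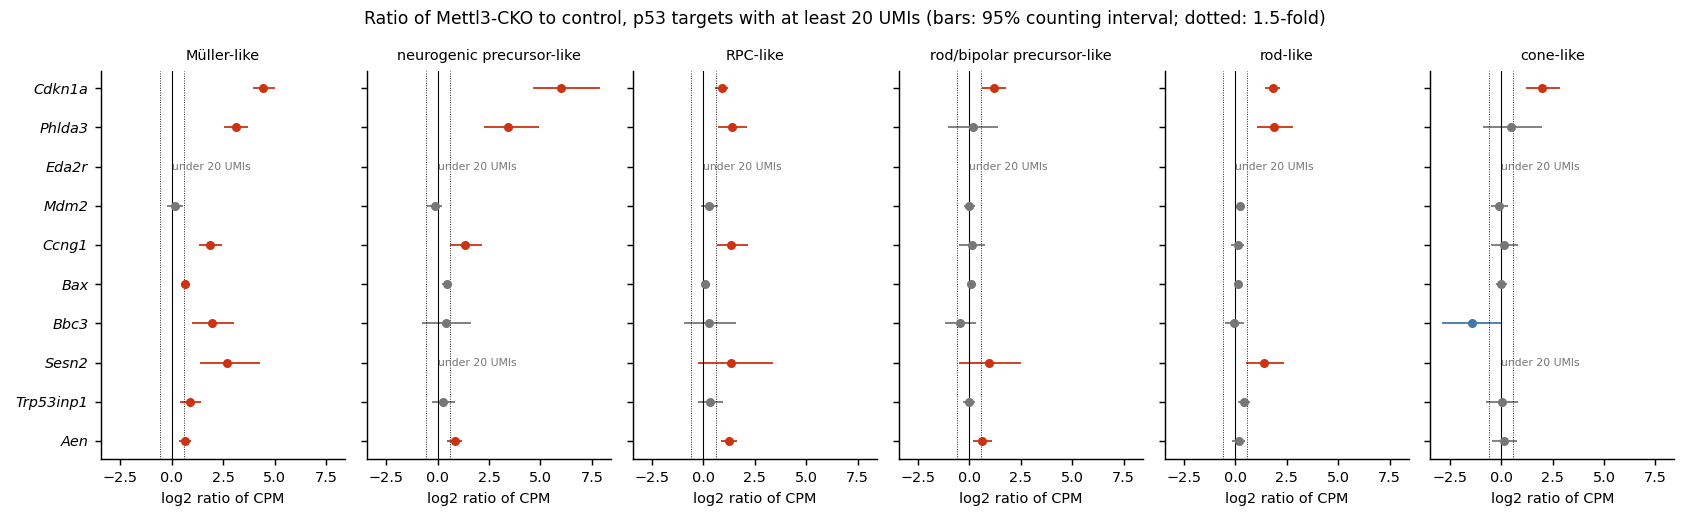
The log2 ratio of Mettl3-CKO to control CPM (horizontal axis) for each member in 6 cell classes, with exact 95% counting intervals as bars. Red marks at least 1.5-fold higher, blue at least 1.5-fold lower and grey neither, the dotted lines mark 1.5-fold, and members with under 20 UMIs are named without a point. In Müller-like cells 8 members are red, from Bax at 0.63 to Cdkn1a at 4.45, while Mdm2 stays grey in all 6 classes.

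The order of classes by Cdkn1a level differed between the libraries. In control cells, microglia-like cells stood first on account of the single cell named above, RPC-like cells followed at 62.7 CPM, and the other 7 classes lay between 17.8 and 2.42 CPM, with intervals that overlapped between neighbours. In Mettl3-CKO cells, Müller-like (255 CPM), neurogenic precursor-like (154 CPM) and RPC-like cells (116 CPM) led, each with an interval above that of the next class. Phlda3 in the Mettl3-CKO library had the same 3 leading classes, at 88.5, 39.0 and 32.6 CPM, and the intervals of the latter 2 overlapped. Mdm2 had another order and was highest in rod-like cells at 110 CPM in the Mettl3-CKO library.

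The share of cells with a UMI depends on depth, so each cell was thinned at random to 2000 UMIs and shallower cells were left out. In Müller-like cells, a Cdkn1a UMI was seen in 2.59% of 309 thinned control cells and 17.8% of 213 thinned Mettl3-CKO cells. At full depth, the shares were 3.60% and 25.4%, with median depths of 8009 and 7818.5 UMIs. For Phlda3 in the same class, the thinned shares were 1.94% and 14.1%, and the full-depth shares 6.17% and 25.4%. In neurogenic precursor-like cells, Cdkn1a was seen in 0 of 183 thinned control cells, which allows up to 2.00% of cells with a UMI, and in 8.92% of 213 in the Mettl3-CKO library. No retinal class is known to lack these genes, so the share that free RNA gives could not be measured. Within the Mettl3-CKO library, the lowest class share of Cdkn1a was 3.504% (of 371 rod/bipolar precursor-like cells).

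In RPC-like cells the thinned share with Cdkn1a was 11.1% in control and 11.6% in Mettl3-CKO cells, so the share was close to equal where the level differed. Among Cdkn1a-bearing RPC-like cells, the counts per cell differed. Of the Mettl3-CKO cells, 17 held 5 or more Cdkn1a UMIs, with a highest count of 77, and 4 of the control cells did. The share with Aen in RPC-like cells was 7.41% in control and 16.3% in Mettl3-CKO cells.

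Cdkn1a was concentrated in few cells of each class. In Müller-like cells of the Mettl3-CKO library, 34 cells held 5 or more Cdkn1a UMIs and 191 held none, while 1 control cell held 5 or more. The 26 cells with the most Cdkn1a held 77.4% of its UMIs. In the same library, 22 of 216 neurogenic precursor-like cells held 96.3% and 35 of 348 RPC-like cells 74.3%. Over all Mettl3-CKO cells, 111 held 5 or more Cdkn1a UMIs, and 11 control cells did.

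The other members were next looked for in the same cells as Cdkn1a, again at 2000 UMIs per cell. In the Mettl3-CKO library, Phlda3 was seen in 20.1% (14.9 to 26.1) of 214 cells with Cdkn1a and in 2.07% of 2371 cells without. At full depth the shares were 29.9% and 4.66%. Eda2r was seen in 4.67% and 0.0844%, Sesn2 in 5.61% and 1.10%, Ccng1 in 14.5% and 4.93%, and Aen in 22.4% and 8.60%. Mdm2 differed least, at 18.2% of cells with and 15.9% of cells without Cdkn1a. At least 2 of the other 9 members were seen in 42.1% (35.4 to 49.0) of cells with Cdkn1a and 16.0% of cells without.

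In the control library, with all classes pooled, the shares lay closer together. Phlda3 was seen in 1.30% of 77 cells with Cdkn1a and 0.928% of 3016 cells without, Ccng1 in 3.896% and 4.34%, and Aen in 9.09% and 6.63%. At least 2 of the other 9 members were seen in 20.8% and 14.2%. With 77 cells, differences of a few percentage points were not detectable at this depth. Within control classes and with all UMIs used, Phlda3 was higher beside Cdkn1a in some. Its ratio between cells with and without Cdkn1a was 6.80 (2.60 to 16.0) in Müller-like cells, from 8 and 21 UMIs in 14 and 375 cells. The rod-like class had a ratio of 5.64 (1.33 to 18.6), from 4 and 12 UMIs. In rod/bipolar precursor-like cells it was 35.4 (9.12 to 123), from 5 and 8 UMIs in 7 and 422 cells, and there Ccng1 had a ratio of 5.96, Aen of 6.84 and Trp53inp1 of 4.91. In RPC-like cells the Phlda3 ratio was 1.33 (0.503 to 3.37), so some control classes, too, had members high in the few cells with Cdkn1a. These cells come from few pups and many classes, so the shares describe cells and not conditions.

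Within Müller-like cells of the Mettl3-CKO library, where cell class is held constant, Phlda3 was seen in 52.6% (35.8 to 69.0) of 38 cells with Cdkn1a and 5.71% of 175 cells without. Bax was seen in 71.1% and 29.7%, Aen in 31.6% and 17.1%, Mdm2 in 18.4% and 7.43%, and Eda2r in 10.5% and 0%. At least 2 of the other members were seen in 68.4% and 13.7%. In neurogenic precursor-like cells, Phlda3 was seen in 31.6% of 19 cells with and 3.09% of 194 cells without Cdkn1a, and Ccng1 in 31.6% and 3.61%. In RPC-like cells the difference was smaller, with Phlda3 in 9.38% of 32 cells with and 3.69% of 244 cells without Cdkn1a.

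**Figure D3:**
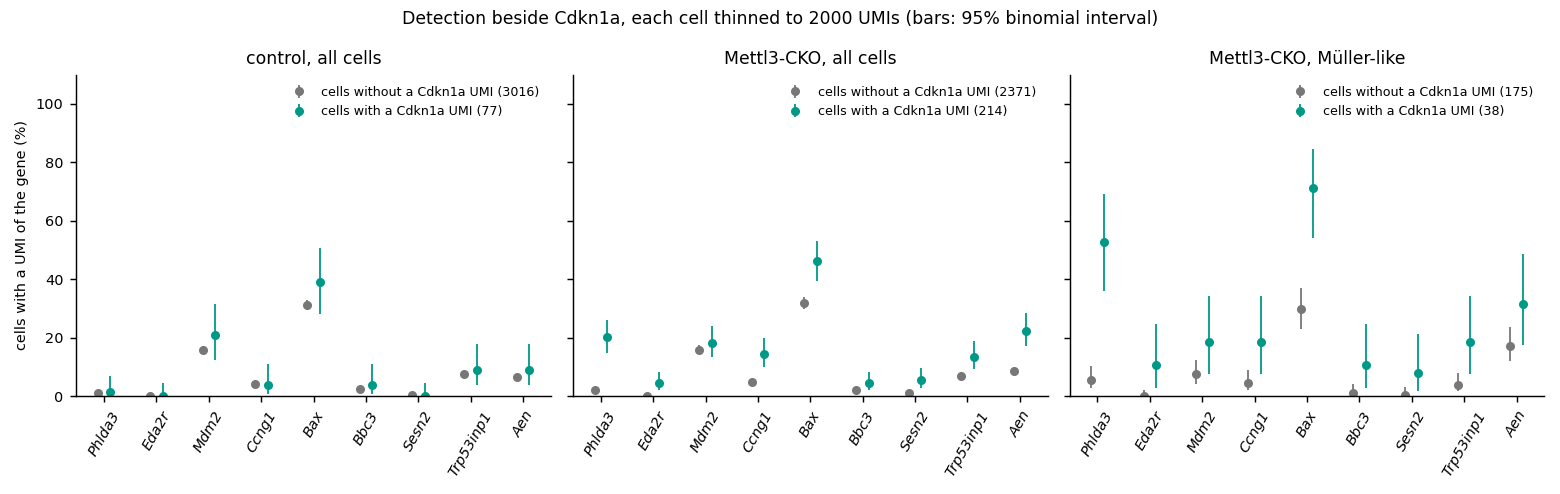
Percent of cells (vertical axis) in which each of the other 9 members was seen, among cells with and without a Cdkn1a UMI, each cell thinned to 2000 UMIs, for all control cells, all Mettl3-CKO cells and Mettl3-CKO Müller-like cells, with exact 95% binomial intervals as bars. In Müller-like cells of the Mettl3-CKO library Phlda3 was seen in 52.6% of cells with and 5.71% of cells without Cdkn1a, while in control cells both shares were under 2%.

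Levels in cells with and without Cdkn1a gave the same picture with all UMIs used. In Mettl3-CKO Müller-like cells, 65 had Cdkn1a and 191 did not, with similar median depths of 7974 and 7742 UMIs. Phlda3 stood at 273 and 18.3 CPM, a 14.9-fold ratio, Bbc3 at 55.7 and 3.66 CPM, and Ccng1 at 144 and 18.3 CPM. Bax stood at 472 and 170 CPM, Aen at 192 and 71.1 CPM, and Mdm2 at 78.7 and 44.0 CPM, a ratio of 1.79. Eda2r had all of its 17 UMIs in the cells with Cdkn1a. Trp53, at 97.9 and 94.5 CPM, and Mettl3, at 28.8 and 33.7 CPM, had intervals that overlapped. Müller markers summed to a ratio of 1.03 (0.987 to 1.07) between cells with and without Cdkn1a, and dissociation genes to 0.938. Markers of other classes moved for rods, at 305 and 1246 CPM, with 0 of 9 higher, and for endothelial cells, at 965 and 686 CPM, with 4 of 6 higher. Outside their intervals also lay the RPC markers, at a ratio of 0.495 (0.364 to 0.663) with 1 of 9 higher, the neurogenic precursor markers, at 0.824 (0.769 to 0.883) with 3 of 8 higher, and the pericyte markers, at 3.28 (1.43 to 7.66) with 1 of 5 higher. The 8 m6A-tagged genes that the study chose on these samples summed to a ratio of 1.76 (1.64 to 1.90), with 7 of 8 higher. The part of these lists in the member levels was not tested.

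Without Cdkn1a UMIs, Mettl3-CKO Müller-like cells lay nearer to the control class. Bax was at 170 CPM in them and at 164 CPM in all control Müller-like cells, and Aen at 71.1 and 66.6 CPM. Phlda3 stood at 18.3 CPM (11.9 to 27.0) and 10.3 CPM (6.88 to 14.8), with intervals that overlap. These are levels of cells chosen for having no Cdkn1a UMI, which includes cells whose Cdkn1a was missed.

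The level of the other members went with the number of Cdkn1a UMIs. In Mettl3-CKO Müller-like cells, the 9 other members summed to 344 CPM in the 191 cells with none, 465 CPM in 15 cells with 1, 1224 CPM in 16 cells with 2 to 4, and 1699 CPM in 34 cells with 5 or more. In neurogenic precursor-like cells of the same library the sums were 392, 551, 866 and 1476 CPM. In RPC-like cells they were 327, 295, 385 and 1240 CPM, so there the difference lay in the 17 cells with 5 or more. The RPC-like cells with Cdkn1a were deeper, with a median of 11503.5 UMIs against 7408.5, and all 6 rod/bipolar precursor markers were higher in them, with a summed ratio of 3.59, and the part of both was not tested. In control RPC-like cells the sums were 277, 333, 276 and 263 CPM, the last over only 4 cells. The sum of the other members thus showed no steady rise with Cdkn1a in control RPC-like cells. Bax was the largest part of that sum, which says little about members with few UMIs.

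Phlda3 followed this order most steeply in neurogenic precursor-like cells, at 5.44, 47.2, 194 and 264 CPM. Bax in Müller-like cells stood at 170, 251, 393 and 563 CPM, and Mdm2 at 44.0, 50.2, 45.3 and 100 CPM. In the rod-like cells, Phlda3 was at 5.58 CPM without Cdkn1a and 94.7 CPM in the 11 cells with 5 or more, and Ccng1 at 28.4 and 146 CPM. Trp53 showed no such order in Müller-like cells, at 94.5, 62.8, 121 and 97.1 CPM. Deeper cells are more likely to show Cdkn1a, and the median depth of these Müller-like groups ranged from 5969 to 8515.5 UMIs.

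**Figure D4:**
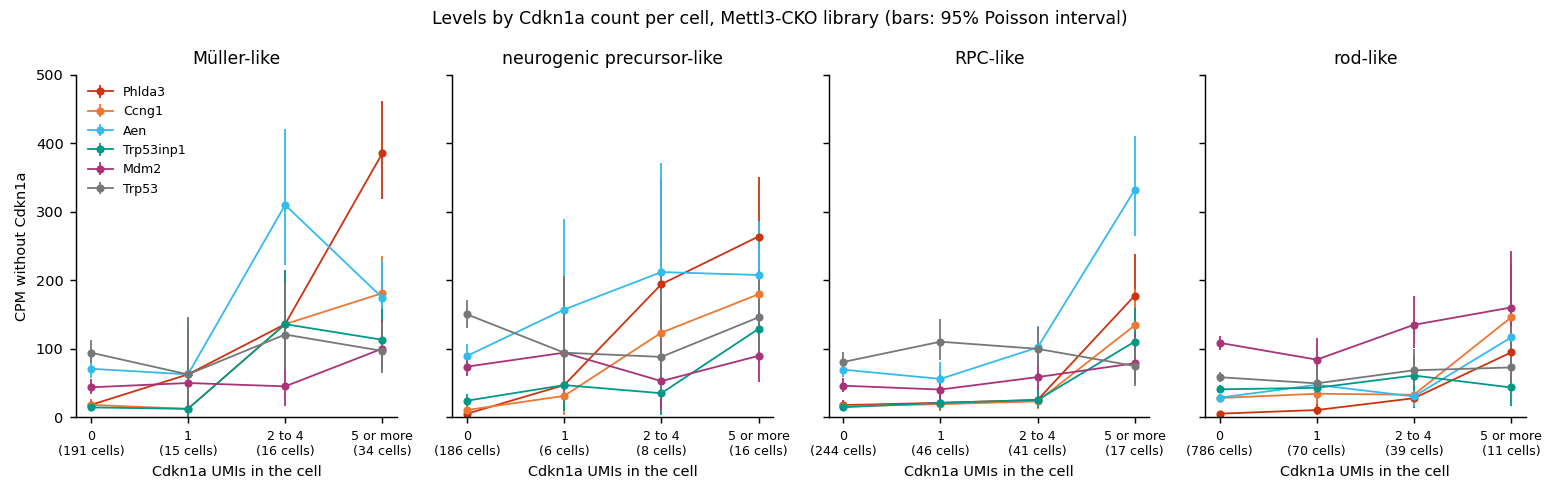
CPM of Phlda3, Ccng1, Aen, Trp53inp1, Mdm2 and Trp53 (vertical axes) in Mettl3-CKO cells grouped by their number of Cdkn1a UMIs (horizontal axis: 0, 1, 2 to 4, 5 or more) in Müller-like, neurogenic precursor-like, RPC-like and rod-like cells, with exact Poisson 95% intervals as bars. Phlda3 in neurogenic precursor-like cells ran from 5.44 to 264 CPM, while Trp53 in Müller-like cells was at 94.5 CPM with 0 and 97.1 CPM with 5 or more Cdkn1a UMIs.

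Cells with Cdkn1a in the neurogenic precursor-like class of the Mettl3-CKO library numbered 30, against 186 without. Phlda3 stood at 204 and 5.44 CPM, a ratio of 37.6 (17.9 to 91.0), and Bbc3 at 50.3 and 1.36 CPM. Mettl3 stood at 13.4 CPM in the cells with Cdkn1a and 46.9 CPM in those without, from 4 and 69 UMIs, a ratio of 0.29 (0.08 to 0.77). In Cdkn1a-bearing Müller-like cells the Mettl3 ratio was 0.854. Of the marker lists in these neurogenic precursor-like cells, RPC markers had a ratio of 1.81 (1.37 to 2.36) with 6 of 9 higher, cone markers 1.88 (1.38 to 2.55) with 3 of 8, and bipolar markers 1.36 (1.05 to 1.73) with 6 of 12. Dissociation genes had a ratio of 0.796 (0.762 to 0.831) and the class's own markers one of 0.920 (0.883 to 0.959). The 8 m6A-tagged genes that the study chose had a ratio of 1.65 (1.53 to 1.79), with 8 of 8 higher. The part of these lists in the member levels was not tested.

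The number of members seen per cell, at 2000 UMIs, also differed between libraries. At least 3 of the 10 members were seen in 2.04% of all control and 5.49% of all Mettl3-CKO cells. In Müller-like cells these shares were 1.29% and 13.6% (9.31 to 19.0), and in neurogenic precursor-like cells 2.19% and 7.51%. In RPC-like cells they were 1.85% and 4.71%, in rod/bipolar precursor-like cells 2.14% and 4.04%, and in rod-like cells 2.15% and 3.796%. The difference was thus widest in Müller-like cells, the class whose ratios had entered the choice of genes.

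When the Müller-like cells were clustered again by themselves, without the members among the genes used, a subcluster held 78 Mettl3-CKO and 5 control cells. It made up 30.5% of the Mettl3-CKO Müller-like cells and held 416 of their 482 Cdkn1a UMIs, or 86.3%. None of the subclusters reached 95% of cells from the Mettl3-CKO library, the limit set for calling a subcluster specific to it, and this one came closest at 94.0%. At a limit of 80%, 3 subclusters were found, chosen after seeing these values, and the other 2 lay in rod-like and rod/bipolar precursor-like cells. Those held 51.7% and 61.7% of the Cdkn1a UMIs of their class in the Mettl3-CKO library.

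In the Müller-like subcluster, the summed level of the members was 1566 CPM, against 481 CPM in Müller-like cells of that library outside it and 342 CPM in all control Müller-like cells. Cdkn1a stood at 587, 56.0 and 11.7 CPM in these 3 sets of cells, Phlda3 at 181, 33.1 and 10.3 CPM, and Ccng1 at 102, 23.8 and 14.5 CPM. Bax stood at 361, 188 and 164 CPM. The Mettl3-CKO cells outside the subcluster were thus still above the control for Cdkn1a, by 4.79-fold (3.11 to 7.51), and Phlda3, by 3.22-fold, and close to it for Bax, at 1.15-fold. Cells of the subcluster had a median of 8708.5 UMIs and the other Mettl3-CKO cells 7310. The 5 control cells in it held 15 Cdkn1a UMIs.

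Sex transcripts did not divide the subcluster from the rest in one direction, since Xist was seen in 59.0% of its Mettl3-CKO cells and 38.2% of the others, and Y-linked transcripts without Xist in 35.9% and 25.3%. The level of Cdkn1a did differ between the Mettl3-CKO Müller-like cells of each kind. It was 135 CPM in 114 cells with Xist and 461 CPM in 73 cells with Y-linked transcripts and no Xist, at similar median depths of 9059.5 and 8943 UMIs. Phlda3 stood at 58.6 and 138 CPM, Bax at 220 and 304 CPM, and Mdm2 at 32.7 and 87.7 CPM. Against the mostly male control class, the summed members were 1.85-fold higher in the cells with Xist and 3.87-fold higher in those with Y-linked transcripts. Both sets were above the control. Since the library pooled 2 pups, sex and pup cannot be told apart, and the part of either in the ratios was not tested.

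In the other classes with many cells, the split by sex transcripts was smaller for Cdkn1a. In RPC-like cells it was at 101.1 CPM in 179 cells with Xist and 158 CPM in 83 cells with Y-linked transcripts and no Xist, and in rod-like cells at 46.9 and 52.2 CPM. In neurogenic precursor-like cells it was at 134 and 174 CPM. In 2 classes of few cells it was wide and in opposite directions, at 35.4 CPM in 37 cells with Xist and 149.9 CPM in 23 with Y-linked transcripts among bipolar-like cells, and at 81.1 CPM in 73 and 25.3 CPM in 19 cone-like cells. Over all Mettl3-CKO cells the levels were 76.0 and 154 CPM, both above the 17.0 CPM of the control library.

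The other p53 targets were taken from a list of 46 genes, which was made with earlier results of these data known. Over all cells, 13 of the 41 counted were at least 1.5-fold higher and 1, Pltp, was lower, beside 6.83% and 5.14% of all genes. In Müller-like cells 15 of 34 were higher, beside 13% of all genes, with a median log2 ratio of 0.56 beside 0.08 over all genes. Ddit4l, an inhibitor of mTOR signalling, had 55 and 192 UMIs there, a log2 ratio of 2.38 (1.94 to 2.84). Zmat3, an RNA-binding p53 target, had 80 and 130 UMIs and a log2 ratio of 1.28, and the death receptor Tnfrsf10b had 4 and 24 UMIs and a log2 ratio of 3.17. Psrc1, with 7 and 48 UMIs, and Ephx1, an epoxide hydrolase with 3 and 22 UMIs, had log2 ratios of 3.36 and 3.45. The others higher there were Sesn1, Polk, Slc19a2, Ckap2, Ptp4a3, Kank3, Cgref1, Rap2b, Ak1 and Trp53cor1, with log2 ratios from 0.68 for Sesn1 to 2.30 for Slc19a2.

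In neurogenic precursor-like cells 7 of 28 further targets were higher, beside 10.2% of all genes, among them Ddit4l with 6 and 55 UMIs, a log2 ratio of 3.101, and Psrc1 with 3 and 23 UMIs. The others were Polk, Fdxr, Ckap2, Kank3 and Ak1. In RPC-like cells 7 of 33 were higher, beside 11.6% of all genes, among them Gdf15, a secreted stress cytokine, with 2 and 29 UMIs and a log2 ratio of 3.02. The others were Xpc, Pidd1, Ddit4l, Slc19a2, Ptp4a3 and Ak1. In rod-like cells 5 of 32 were higher, beside 6.39% of all genes, among them the long noncoding RNA Trp53cor1 (lincRNA-p21), which lies beside Cdkn1a and had 10 and 39 UMIs, a log2 ratio of 2.16. In rod/bipolar precursor-like cells 2 of 25 were higher, Tigar and Ak1, and 1, Plk2, was lower, which is near the 6.91% and 4.18% of all genes.

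Of the genes that regulate p53, 1 of 15 counted was higher over all cells, which is near the 6.83% of all genes. It was the checkpoint kinase Chek1, with 66 and 133 UMIs, which was also higher in RPC-like cells, while Cdkn2a was lower there. The kinase Atm, with 27 and 29 UMIs, was past 1.5-fold in Müller-like cells, with an interval that included no difference. Trp53 had log2 ratios of 0.10, 0.01 and -0.00 in Müller-like, neurogenic precursor-like and RPC-like cells, and Mdm4, the partner of Mdm2, had 0.17, -0.28 and -0.12. None of the 6 other inhibitors of cyclin-dependent kinases was past 1.5-fold over all cells, and Cdkn1c, which acts in cell cycle exit, had a log2 ratio of -1.11 (-1.37 to -0.85) in the RPC-like class. Cdkn1c was also lower in neurogenic precursor-like cells, and Cdkn2d was higher in Müller-like cells. Among apoptosis genes not listed as p53 targets, Birc5 was higher and Hrk lower over all cells. Birc5 is also one of the RPC markers, and within RPC-like cells it was not past 1.5-fold higher. In Müller-like cells 1 of 15 counted, Casp8, was higher and 1, Hrk, lower, beside 13% and 4.77% of all genes. Casp9 was the 1 of 16 higher in RPC-like cells, beside 11.6%. Bid and Casp9 were the 2 of 13 higher in neurogenic precursor-like cells, beside 10.2%. Bak1 and Bid were the 2 of 12 higher in rod/bipolar precursor-like cells, beside 6.91%. In rod-like cells 4 of 16 were higher, Bcl2, Bid, Hrk and Birc5, beside 6.39% of all genes. Hrk was thus lower in Müller-like and higher in rod-like cells. In the integrated stress response list 1 of 12 genes, Chac1, was higher over all cells, beside 6.83% of all genes. None of 10 counted was higher in Müller-like cells, beside 13% of all genes. Ppp1r15a was higher in RPC-like and neurogenic precursor-like cells, and in the latter Atf5 was higher and Atf3 lower.

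Of the genes that respond to tissue dissociation, 0 of 15 were higher over all cells, beside 6.83% of all genes. In Müller-like cells Atf3 and Nr4a1 of this list were lower, with log2 ratios of -1.31 and -1.07. In RPC-like cells Nr4a1 and Zfp36 of the same list were higher, and Zfp36 was higher in both precursor-like classes. In amacrine-like cells, where Cdkn1a was the member that was higher, 4 of 10 dissociation genes were higher, Fos, Fosb, Ier3 and Dnajb1, beside 14% of all genes. The dissociation genes counted had a median log2 ratio of 0.47 there, beside 0.06 over all genes. The study chose 8 m6A-tagged genes on these samples, which are therefore no independent evidence. Of these 8, 6 were higher in Müller-like cells (Zfp292, Ckap4, Nxt1, Traf4, Rap2b and Sulf2), beside 13% of all genes. In RPC-like cells 5 of the 8 were higher, Apex1 among them, beside 11.6% of all genes. Rap2b stands in both this list and that of further p53 targets. Of 6 sex-linked genes, Xist and Tsix were higher and the 4 Y-linked genes lower over all cells. The part of dissociation, depth, sex and library in the member ratios was not tested.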

How the data were processed

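Single-cell RNA libraries (Chromium 3′ v3.1) were made from papain-digested retinas, 1 control and 1 Mettl3-CKO library. Per the labels and the methods, the authors trimmed reads with fastp and aligned them to GRCm38 (mm10) with Cell Ranger 3.1.0, and later used Seurat 3.1. The deposited values are raw UMI counts per gene and cell, not normalized by the authors. The study states a filter of over 200 genes and under 20% mitochondrial UMIs, and 237 control and 86 Mettl3-CKO cells analysed here fell outside it. Of the 5995 and 6992 barcodes, 3994 and 3109 cells had complete counts in the matrices as read, and the others were not analysed here.

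Mitochondrial genes (13) were left out of totals, which were 20955138 control and 19957693 Mettl3-CKO UMIs. Counts were scaled to 10000, and 2000 variable genes, 10 principal components and 20 neighbours were clustered with Leiden at resolution 1 (Python 3.11.15 with pandas 2.3.3, numpy 2.4.6, leidenalg 0.10.2, scikit-learn 1.9.0, matplotlib 3.10.9, scipy 1.17.1 and igraph 0.11.9). A cluster was named from 16 marker lists when at least 3 markers were 1.5-fold higher and seen in 20% of its cells, with a mean log2 fold of 0.5, or 1 if its 10 leading genes held none. How ties between names were settled was decided after the clusters had been seen. A class needed 30 cells per library, and classes of at least 100 cells were clustered again at resolution 0.5. No doublets were removed from the main results (1.93% of control and 2.03% of Mettl3-CKO cells were predicted as such).

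A level is the sum of UMIs over cells per 1000000 UMIs (CPM), with an exact Poisson interval. Ratios have exact conditional binomial intervals, and shares Clopper-Pearson intervals, all at 95% and covering counting error only. The count code was tested on simulated data. A gene was counted with at least 20 UMIs over both libraries and called at 1.5-fold. A control at 0 was set to 3 UMIs for a lower bound. With 1 library per group no test was made.

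The members and all gene lists were chosen with earlier results of these data known. All members are named. From each list, genes past 1.5-fold with at least 20 UMIs in Müller-like, RPC-like or precursor-like cells are named, and Trp53 and Mdm4 in any case. Beyond the lists, the 10 genes most correlated with Cdkn1a over classes (at least 200 UMIs) and the 10 with the highest ratio beside Cdkn1a in Mettl3-CKO Müller-like cells (at least 50 UMIs) are named. Genes named over all cells or in rod-like cells only (Pltp, Birc5, Chac1, Bcl2), the dissociation genes in amacrine-like cells, and those beside Cdkn1a in RPC-like cells, were chosen after their values were seen. A gene of the apoptosis list is not reported here. The m6A-tagged genes are those the study named. The p53 decamer consensus was searched on both strands of the RefSeq promoter windows of GRCm38.p6, and not in longer regions. Trp53inp1 is named only. Alternatives covered scaling, the UMI minimum, the fold, thinning, doublets, the cell filter, clustering and sex transcripts.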

Additional observations from a re-analysis of the deposited data

Results flagged for a closer look

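Cdkn1a was higher in the Mettl3-CKO library in 8 of the 9 named classes and lower in the microglia-like class, with a log2 ratio of -2.18 (-3.43 to -1.10). The opposite direction of 1 class against the others is what marked it for a closer look, and the difference was not tested. It rests on 1 control cell that held 32 of the 35 control UMIs. Without the cell with the most Cdkn1a UMIs in each library, 3 and 5 UMIs remained in 33 control and 29 Mettl3-CKO cells, which is too few to give a direction.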

How the results depend on the processing

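Values are given under each alternative with the main value in brackets. With only the Mettl3-CKO cells that held Xist, the Cdkn1a log2 ratio was 2.16 over all cells [2.54], 3.53 in Müller-like [4.45] and 2.25 in bipolar-like cells [3.34], the summed ratio was 1.34 over all cells [1.43] and 1.85 in Müller-like cells [2.59], and the members higher were 5 in Müller-like [8], 2 in cone-like [1] and 1 in bipolar-like cells [2]. With only those that held Y-linked transcripts and no Xist, the Cdkn1a log2 ratio was 3.18 over all cells, 1.33 in RPC-like [0.89], 5.30 in Müller-like and 0.50 in cone-like cells [1.98], and the summed ratios were 1.67, 1.77 [1.495], 3.87 and 0.952 [1.13]. The members higher were then 1 in rod/bipolar precursor-like [3], 0 in cone-like and 1 in bipolar-like cells, and Sesn2 reversed in rod/bipolar precursor-like cells, at a log2 ratio of -0.85 [0.94].

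With the mean of per-cell CPM, the summed ratio was 1.35 over all cells, 1.31 in RPC-like, 2.34 in Müller-like and 0.501 in microglia-like cells [0.890]. Without Cdkn1a it was 1.24 over all cells, 1.48 in neurogenic precursor-like [1.90], 1.91 in Müller-like, 1.17 in rod-like [1.25] and 1.25 in microglia-like cells. With the cell filter of the study it was 1.67 in RPC-like and 1.68 in neurogenic precursor-like cells. At clustering resolution 2, RPC-like cells had a Cdkn1a log2 ratio of 1.39 and a summed ratio of 1.65, and 1 member was higher in bipolar-like cells. With each library clustered on its own, neurogenic precursor-like cells had a Cdkn1a log2 ratio of 3.37 [5.997] and a summed ratio of 1.502, and Müller-like cells 3.76 and 2.25. With the members among the variable genes, neurogenic precursor-like cells had 3.71 and 1.70.

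With cells assigned singly by their own markers, the Cdkn1a log2 ratio was 3.7996 in Müller-like, 2.05 in rod/bipolar precursor-like [1.18], 1.43 in rod-like [1.81] and 5.08 in bipolar-like cells, the summed ratios were 2.17, 1.27 [1.11], 1.16 and 1.501 [1.11], and the members higher were 5 in rod/bipolar precursor-like, 2 in cone-like and 3 in amacrine-like cells [1]. Without the cell with the most Cdkn1a in each library, an alternative chosen after seeing the data, the Cdkn1a log2 ratio was 5.17 in Müller-like and 1.85 in rod/bipolar precursor-like cells, and it reversed to 0.55 in microglia-like cells [-2.18].

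Without predicted doublets, 1 member was higher in bipolar-like cells. At a fold of 2, the members higher were 5 in Müller-like, 1 in rod/bipolar precursor-like and 1 in bipolar-like cells. With no UMI minimum they were 2 in cone-like, 2 in amacrine-like and 3 in microglia-like cells [0], and with at least 50 UMIs they were 1 in bipolar-like and 0 in amacrine-like cells. In Mettl3-CKO cells, Phlda3 was seen with Cdkn1a in 29.9% at full depth and 13.8% at 1000 UMIs [20.1%], and without it in 4.66% and 1.33% [2.07%]. At least 3 members were seen in 2.04% of control cells, against 15.2% for at least 2, 0.259% for at least 4 and 0.282% for 3 at 1000 UMIs. In Mettl3-CKO cells these were 5.49%, 20.7%, 2.01% and 1.76%. At a limit of 80%, chosen after seeing the data, 3 subclusters were mostly of Mettl3-CKO cells [0].

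The Cdkn1a log2 ratio stayed above 0 under every alternative run in all classes but microglia-like, with a range from 3.53 to 5.30 in Müller-like and from 0.63 to 1.39 in RPC-like cells. Of the alternative values for the log2 ratios of the other members, 627 were within counting error of the main value, 28 moved and 1 reversed. A reversal was counted only where the main value was past 1.5-fold, so changes of sign in smaller ratios were not counted. Median-of-ratios scaling shifted log2 ratios by at most 0.0778, in Müller-like cells. With each library clustered on its own there were no Mettl3-CKO rod/bipolar precursor-like cells, and microglia-like cells with Xist and amacrine-like cells with Y-linked transcripts and no Xist were under 10 in the Mettl3-CKO library, so these gave no value. The causes of these changes were not tested. No paired analysis was possible because each group held 1 library. With 1 library per group, genotype cannot be told apart from pup, sex or library, and 66.6% of control and 44.5% of Mettl3-CKO barcodes were analysed.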

Other observations

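Beside the members, other genes were high in the Müller-like cells of the Mettl3-CKO library that held Cdkn1a. Among 6143 genes with at least 50 UMIs in these cells, Serpine2, a secreted inhibitor of serine proteases, led with 647 CPM in the 65 cells with Cdkn1a and 34.4 CPM in the 191 without, an 18.8-fold ratio, and it stood at 45.7 CPM in control Müller-like cells. Fam212b followed at 16.1-fold, and Phlda3 and Ccng1 ranked 3 and 4. Cebpd, a transcription factor of inflammatory responses, was at 7.09-fold, Trp53inp1 at 7.07-fold, Ddit4l at 6.53-fold, Sulf2, which edits heparan sulfate and is one of the m6A-tagged genes, at 5.91-fold, Itpripl1 at 6.26-fold, and the matrix protease Mmp2 at 5.90-fold. Predicted genes were left unnamed. Among these genes, Mmp2 was also low in control Müller-like cells, at 2.48 CPM, while Cebpd stood at 15.2 CPM there.

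In RPC-like cells of the Mettl3-CKO library, the genes that led in the 104 cells with Cdkn1a included regulators of neuronal precursors, named here after their values were seen. Lhx4 had a ratio of 8.81, Neurod4 7.99, Olig2 5.68, Neurod1 4.71 and Prdm1 4.25, and Phlda3 ranked 22 of 7875 genes. The rod/bipolar precursor markers summed to a ratio of 3.59 (3.30 to 3.904), and the RPC markers to 0.781. Bipolar markers had a ratio of 2.86 (2.13 to 3.86) with 9 of 12 higher, and rod markers 1.54 (1.38 to 1.71) with 7 of 9. Neurogenic precursor (1.11) and amacrine markers (1.14) were also higher, and red blood cell markers (0.0173) lower. Dissociation genes had a ratio of 1.14 (1.11 to 1.16) with 14 of 15 higher, and the 8 m6A-tagged genes 1.10 (1.04 to 1.17) with 8 of 8. Cdkn1a-bearing cells in this class thus differed in stage markers and dissociation genes as well as in p53 targets, and the part of each was not tested.

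Over 18 points, 9 classes in 2 libraries, the genes whose level was most like that of Cdkn1a were Nupl2 (r = 0.857), Lsm10 (0.838), Hmox2 (0.796), Wdr89, Rnf139, Sesn2, Ggct, Rbfa, Arhgap5 and Tsc22d2 (0.685). Sesn2 was the member most like it (0.691, rank 6 of 10883 genes), and Phlda3 had 0.515 and Mdm2 -0.355. The points share libraries and depth, and the control microglia-like point rests on 1 cell.

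Among cells without a class name, a cluster led by Cntnap5a and Rimkla held 89 control and 97 Mettl3-CKO cells. Cdkn1a had 2 UMIs in its control and 163 in its Mettl3-CKO cells, or 3.48 and 242 CPM, and Phlda3 stood at 8.70 and 49.0 CPM.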
